A study of Mus musculus with 30 samples.

Results

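Gstm2-ps1, Gm18635, Gm12498, Gm34934, Gm5526, Pard3bos3, and 9130409I23Rik are 7 of the 55335 genes in a table of RNA-seq counts from mouse liver. They were selected on these same libraries, as transcripts without a described protein product that fall when NRF2 is missing or rise after CDDO-Me. The levels in wild-type mice, and the differences between wild-type and Nrf2-knockout mice, are therefore given as descriptions without tests. The annotation supports that label for 6 of them. Gstm2-ps1, Gm18635, and Gm5526 are processed pseudogenes, Gm12498 and Gm34934 are long intergenic noncoding RNAs, and Pard3bos3 is an antisense RNA. The seventh gene, 9130409I23Rik, is listed as protein coding by both GENCODE and RefSeq, so the annotation goes against the label for this gene, and it is treated here as a coding gene.

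NRF2, encoded by Nfe2l2, is a transcription factor that binds antioxidant response elements together with small MAF proteins and raises the expression of genes for detoxication and glutathione synthesis. KEAP1 holds NRF2 back by directing its degradation, and electrophiles that modify cysteines of KEAP1 release it. Processed pseudogenes are copies of a spliced mRNA that were inserted back into the genome, usually without the promoter of the parent, and their reads can be hard to tell from those of the parent gene or of a gene next to the insertion.

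The study asked whether the cysteine of KEAP1 that the C151S allele replaces is needed for the response to CDDO-Me (bardoxolone methyl), a synthetic oleanane triterpenoid. Livers were taken 24 hours after the dose from male wild-type mice, from mice homozygous for the Keap1 C151S knock-in allele made by genome editing (cysteine replaced by serine), and from mice homozygous for a knockout of Nrf2. All were 7 to 10 weeks of age, shared the albino strain B6(Cg)-Tyr c-2J/J, which is a C57BL/6J line, and received by mouth either CDDO-Me at 30 µmol/kg or the vehicle, a mixture of DMSO and Cremophor-EL in PBS. Each of the 6 groups held 5 mice with 1 library each. Both mutations are present in every cell of the animal, and bulk liver cannot tell fewer cells of a type from less RNA per cell.

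The libraries held 23667068 to 42073169 gene counts. Levels are given as CPM, the counts of a gene scaled to a common library size after TMM normalization, and 3 counts, taken as the floor of detection, correspond to 0.0652 to 0.132 CPM. Nfe2l2 itself was lower but not absent in the knockout, with 29.5 to 39.8 CPM against 60.4 to 71.0 CPM in vehicle-treated wild-type mice, and since the position of the deleted part is not given in the sources used here, these counts are only a partial check of the labels. Hepatocyte markers dominated every library, with a summed level of 73899 to 157255 CPM over 7 genes. In 11 mutant libraries and no wild-type library the clock gene Arntl was at or below 0.90 log2 CPM, against 2.52 or above in the other 19, so that this split and the genotype are partly confounded.

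The 3 pseudogenes differ in how closely they still match a coding gene, which matters for what their counts can mean. Gstm2-ps1 (ENSMUSG00000107369.1, GRCm38 chr5:116632908-116633564, minus strand, 1 exon) is named after Gstm2 but aligned best to Gstm1, at 97.9% identity over all 657 bases with 14 mismatches, against 89.8% for Gstm3 and 85.6% for Gstm2. These are mu-class glutathione S-transferases, which join glutathione to electrophiles. The following stretch, bases 97 to 246 of the pseudogene and the matching coding bases of Gstm1, holds 7 of those mismatches, marked in capitals:
Gstm2-ps1: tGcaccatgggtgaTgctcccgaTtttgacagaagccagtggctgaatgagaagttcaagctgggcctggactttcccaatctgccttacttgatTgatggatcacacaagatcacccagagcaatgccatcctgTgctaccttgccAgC
Gstm1: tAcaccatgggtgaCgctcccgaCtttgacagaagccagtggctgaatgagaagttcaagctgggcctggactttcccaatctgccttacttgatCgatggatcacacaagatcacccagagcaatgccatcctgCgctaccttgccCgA

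Gm5526 (ENSMUSG00000084817.3, chr1:45857332-45857754, minus strand) is a still closer copy of Myl6, which encodes a light chain of myosin. The alignment covered 410 bases at 99.3% identity, with 3 mismatches. Bases 14 to 163 hold 2 of them, in capitals:
Gm5526: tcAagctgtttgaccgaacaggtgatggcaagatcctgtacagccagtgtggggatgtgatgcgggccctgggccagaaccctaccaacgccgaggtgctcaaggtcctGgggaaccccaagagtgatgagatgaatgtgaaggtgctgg
Myl6: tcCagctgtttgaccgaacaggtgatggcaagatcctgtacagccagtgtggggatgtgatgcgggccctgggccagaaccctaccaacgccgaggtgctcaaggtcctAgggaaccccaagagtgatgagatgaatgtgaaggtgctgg

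Gm18635 (ENSMUSG00000105315.1, chr5:87014160-87015219, plus strand) is far more diverged from its parent Arhgap11a, with 125 mismatches and 86.7% identity over 1017 aligned positions. In bases 536 to 685, 27 positions differ:
Gm18635: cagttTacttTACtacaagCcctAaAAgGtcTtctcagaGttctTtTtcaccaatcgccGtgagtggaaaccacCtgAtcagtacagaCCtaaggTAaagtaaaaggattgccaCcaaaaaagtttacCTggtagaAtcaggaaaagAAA
Arhgap11a: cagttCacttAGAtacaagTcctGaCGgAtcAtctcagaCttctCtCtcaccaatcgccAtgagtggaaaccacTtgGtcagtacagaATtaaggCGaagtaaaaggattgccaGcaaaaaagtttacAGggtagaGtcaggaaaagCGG

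Windows of 50 bases, about the length of 1 read, were compared with all annotated transcripts. An exact copy in another gene was found for 41.8% of the 608 windows of Gstm2-ps1, with 215 windows in Gstm1, and for 82.4% of the 374 windows of Gm5526, with 258 in Myl6. No window of Gm18635, Gm34934, Pard3bos3, or 9130409I23Rik had one. For Gm12498, 13.8% of windows matched Gm12502, an antisense pseudogene that lies inside it and had 0 to 0.0819 mean CPM per kb. In Gstm2-ps1 and Gm5526, 354 and 66 windows had no exact copy in another gene, so their counts are uncertain. Single windows were compared with transcripts, while reads came in pairs and were aligned to the genome. The windows thus do not settle which reads were counted.

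The neighbours of the noncoding genes include several detoxication genes. Gm18635 begins 884 bases past the end of Ugt2b35 on the same strand, and the other neighbour, Ugt2b36, lies 50707 bases away. Both encode UDP-glucuronosyltransferases, which attach glucuronic acid to drugs and steroids. Gm12498 (ENSMUSG00000087357.1, chr3:108018294-108025249, minus strand, exons of 2458 bases) ends 320 bases before Gstm1 on the same strand, with Gstm4 15158 bases to the other side. Gm34934 (ENSMUSG00000115100.1, chr14:46866576-46882757, minus strand, 3 transcripts) starts 96 bases from Samd4, an RNA-binding protein gene read in the opposite direction. Pard3bos3 (ENSMUSG00000085400.1, chr1:62456725-62499261, minus strand, exons of 862 bases) lies within the cell polarity gene Pard3b on the other strand. 9130409I23Rik (ENSMUSG00000038768.8, chr1:181051237-181060667, plus strand, exons of 1898 bases) has Ephx1, the microsomal epoxide hydrolase, 30332 bases away, and its closest coding relative is Degs1, a sphingolipid desaturase gene, at 79.8% identity over 978 positions.

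A promoter window from RefSeq (GRCm38.p6, 250 bases before to 50 after the start) was given for 2 of the 7 genes, 9130409I23Rik and Gm34934. The motif TGACNNNGC, the core of the antioxidant response element, was sought on both strands. It occurred 3 times before 9130409I23Rik, beginning 159, 91, and 80 bases before the start, the first and second on the opposite strand, and it was not found in the window of Gm34934. Of all 32851 promoter windows, 12.4% held at least 1 match and 0.0791% held 3 or more. Of the 21 parent and neighbouring genes 17 had a window, and 2 of these held a match, Suds3 and Arhgap11a. None was found in the windows of Gstm1, Gstm2, Gstm4, Ugt2b35, Ugt2b36, Ephx1, or Samd4. The 140 bases around the matches are shown with the matches in capitals, as letters only and not as evidence of binding:
9130409I23Rik: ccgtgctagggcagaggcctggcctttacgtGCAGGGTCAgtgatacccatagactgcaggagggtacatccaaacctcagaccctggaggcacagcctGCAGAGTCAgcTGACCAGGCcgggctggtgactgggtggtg

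Gstm2-ps1 followed Gstm1 through all 6 groups. In vehicle-treated wild-type mice its level was 1.36, 1.89, 0.840, 1.07, and 0.954 CPM in the 5 libraries, and after CDDO-Me it was 5.36, 6.38, 6.24, 6.04, and 7.01 CPM. The treated wild-type libraries were all above every other library. In C151S mice it stood at 0.905, 0.988, 0.996, 0.846, and 0.711 CPM with vehicle and at 0.407, 0.794, 0.533, 1.07, and 1.27 CPM with CDDO-Me, which overlap. The knockout had 0.134, 0.169, 0.261, 0.165, and 0.337 CPM with vehicle and 0.239, 0.169, 0.168, 0.174, and 0.236 CPM with CDDO-Me, below all C151S libraries. The fold change in wild-type mice was 2.35 ± 0.20 (SE) on the log2 scale, and the ordering of groups from highest to lowest was treated wild-type, vehicle-treated wild-type, C151S, and knockout, with overlap between vehicle-treated wild-type and vehicle-treated C151S mice.

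Relative to its parent, Gstm2-ps1 differed little between groups. There were 0.597 ± 0.072 counts of Gstm2-ps1 per 1000 counts of Gstm1 in vehicle-treated and 0.583 ± 0.080 in CDDO-Me-treated wild-type mice (mean ± SD, n = 5). The C151S groups had 0.671 ± 0.121 and 0.601 ± 0.074, and the knockout groups 0.660 ± 0.213 and 0.577 ± 0.162. The highest group mean was 1.16 times the lowest, while the mean level of Gstm1 ranged from 321 CPM in vehicle-treated knockout mice to 10774 CPM in treated wild-type mice. Against Gstm2, the gene of its symbol, the ratio ranged 6.54-fold over the groups. Whether the counts come from Gstm2-ps1 itself or from reads of Gstm1 was not tested.

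**Figure D1:**
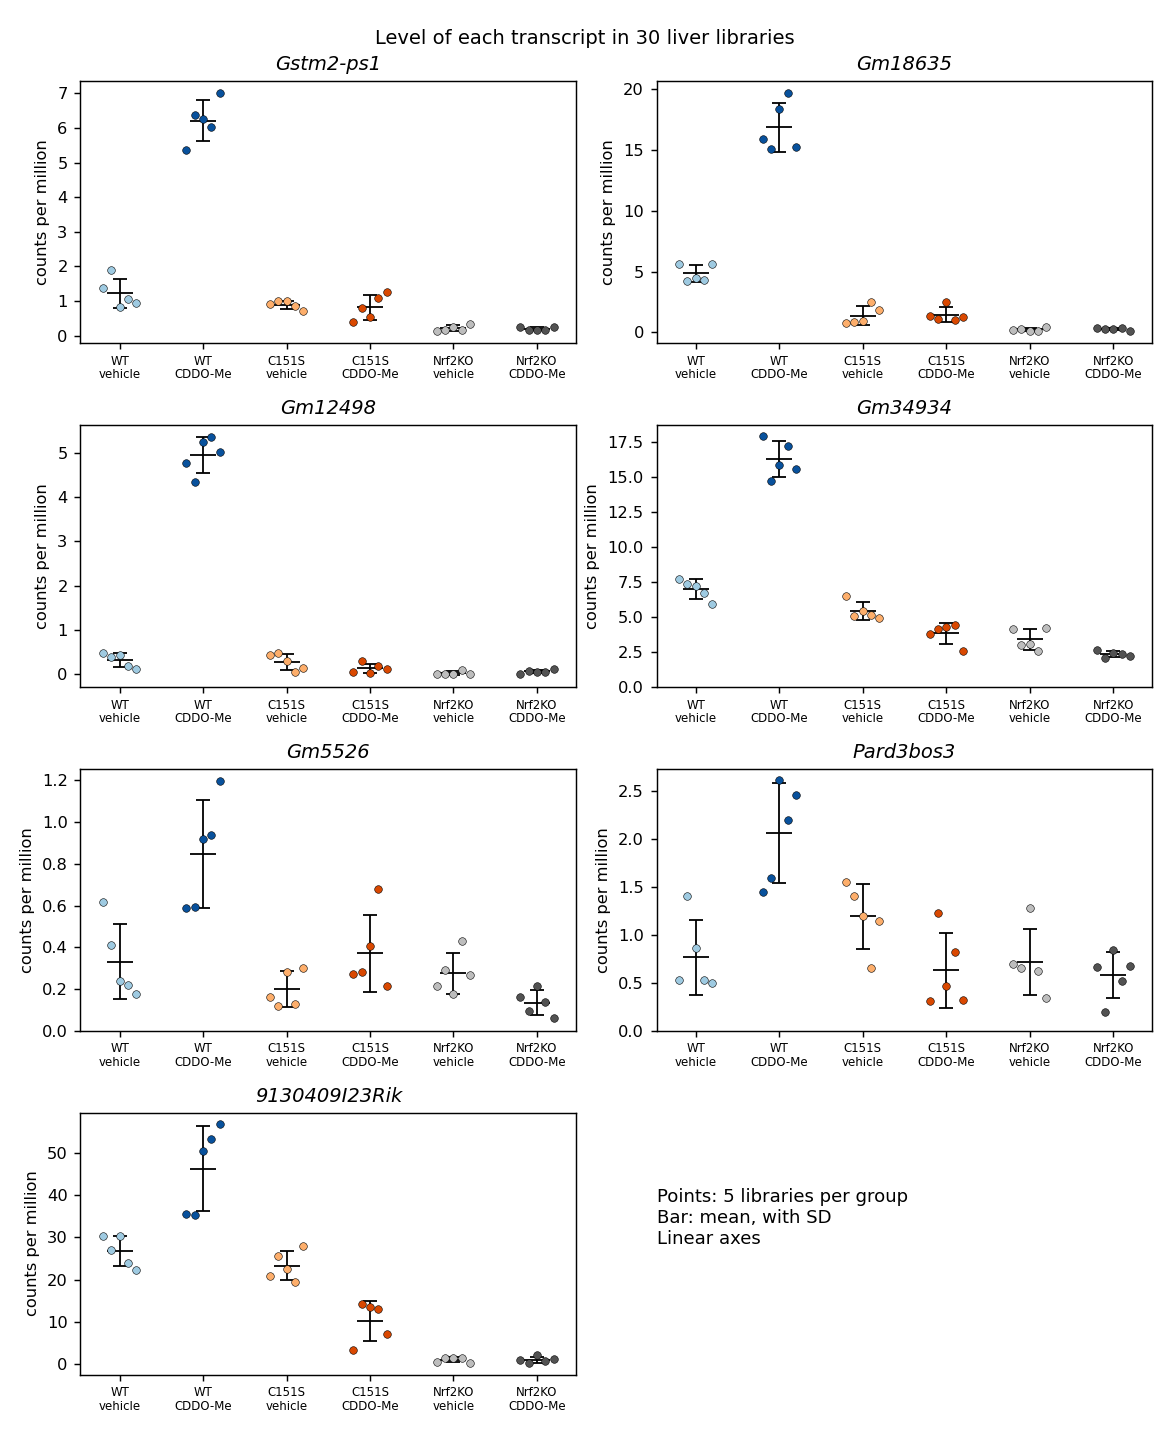
Level of each of the 7 transcripts in CPM (linear axes) in 5 libraries (points) of each of 6 groups, with the mean and SD. For Gstm2-ps1, Gm18635, Gm12498, Gm34934, and 9130409I23Rik the treated wild-type libraries lie above all others, while for Gm5526 and Pard3bos3 they overlap with other groups.

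Gm12498 was close to the floor in every group except treated wild-type mice. It had 11, 11, 16, 6, and 3 counts in the vehicle-treated wild-type libraries and 122, 131, 149, 183, and 163 after CDDO-Me, or 0.315 ± 0.160 and 4.95 ± 0.41 CPM (mean ± SD, n = 5). The groups did not overlap, and the log2 fold change was 3.96 ± 0.26 (SE), the highest of the 7. C151S mice had 13, 16, 11, 1, and 5 counts with vehicle and 1, 11, 1, 6, and 4 with CDDO-Me, and the knockout had 0, 0, 0, 3, and 0 with vehicle and 0, 3, 2, 1, and 4 with CDDO-Me. Vehicle-treated wild-type mice were at least 3.12-fold higher than vehicle-treated knockout mice, set against 3 counts in 1 library. Its ratio to Gstm1, the gene downstream of it, was not fixed, with 0.156 ± 0.080 counts per 1000 in vehicle-treated and 0.465 ± 0.053 in treated wild-type mice. The separate transcription of Gm12498 and Gstm1 was not tested.

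Gm18635 stood at separate levels in wild-type, C151S, and knockout mice. Vehicle-treated wild-type libraries had 5.62, 4.25, 4.46, 4.34, and 5.65 CPM and treated ones 15.9, 15.1, 18.3, 19.7, and 15.2 CPM. The C151S libraries held 0.743, 0.899, 0.970, 2.51, and 1.81 CPM with vehicle and 1.36, 1.10, 2.54, 1.02, and 1.24 CPM with CDDO-Me, and the knockout 0.214, 0.241, 0.152, 0.132, and 0.472 CPM and 0.372, 0.266, 0.312, 0.348, and 0.148 CPM. Wild-type libraries were above all C151S libraries and these above all knockout libraries, whatever the treatment. The 2 vehicle-treated C151S libraries with low Arntl had 1.81 and 2.51 CPM against 0.743 to 0.970 CPM in the other 3, and the part of this split in the level was not tested.

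Its neighbour Ugt2b35 showed the same order with smaller steps. The mean level of Ugt2b35 was 310 ± 40 CPM and 831 ± 84 CPM in wild-type mice without and with CDDO-Me, 161 ± 62 and 152 ± 43 CPM in C151S, and 50.7 ± 9.2 and 63.2 ± 13 CPM in knockout mice. The counts of Gm18635 per 1000 counts of Ugt2b35 were lower along that order, from 20.3 ± 1.2 in treated and 15.7 ± 1.8 in vehicle-treated wild-type mice to 8.24 ± 1.84 and 9.36 ± 1.45 in C151S mice without and with CDDO-Me and 4.71 ± 2.21 and 4.55 ± 1.07 in knockout mice. The ratio was thus not fixed, in contrast to Gstm2-ps1 and Gstm1, and ranged 4.46-fold between groups. The parent Arhgap11a ran differently: its mean was 1.67 CPM and 1.09 CPM in vehicle-treated and treated wild-type mice and 2.66 CPM in vehicle-treated knockout mice. The group means of the counts of Gm18635 per 1000 counts of Arhgap11a ranged 144-fold, from 115 in vehicle-treated knockout mice to 16599 in treated wild-type mice. Continuation of reads past the end of Ugt2b35 into Gm18635 was not tested.

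Gm34934 and Samd4 start next to each other on opposite strands. The wild-type libraries had 7.73, 7.38, 7.22, 6.69, and 5.93 CPM of Gm34934 with vehicle and 18, 14.8, 15.9, 17.3, and 15.6 CPM with CDDO-Me, a log2 fold change of 1.21 ± 0.09 (SE) with no overlap. In C151S mice the vehicle libraries had 6.5, 5.09, 5.46, 5.14, and 4.90 CPM and the CDDO-Me libraries 3.76, 4.15, 4.27, 4.46, and 2.59 CPM, so that the treated ones were lower without overlap. The knockout gave 4.17, 3.03, 3.04, 2.54, and 4.21 CPM and 2.63, 2.06, 2.44, 2.33, and 2.24 CPM. Samd4 went from 4.75 ± 0.66 to 11.8 ± 1.5 CPM in wild-type mice, from 5.29 ± 1.15 to 3.21 ± 0.92 CPM in C151S mice, and from 4.01 ± 1.66 to 3.13 ± 1.38 CPM in knockout mice. There were 1485 ± 175 and 1401 ± 183 counts of Gm34934 per 1000 counts of Samd4 in vehicle-treated and treated wild-type mice, and the group means ranged 1.64-fold.

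Gm5526 was near the limit of detection, with 2 to 39 counts per library. Vehicle-treated wild-type mice had 0.615, 0.412, 0.236, 0.220, and 0.177 CPM and treated ones 0.587, 0.595, 0.917, 0.938, and 1.20 CPM, which overlap. C151S libraries had 0.162, 0.120, 0.281, 0.130, and 0.301 CPM and 0.271, 0.282, 0.408, 0.678, and 0.216 CPM, and knockout libraries 0.214, 0.289, 0.174, 0.429, and 0.270 CPM and 0.159, 0.0968, 0.216, 0.139, and 0.0590 CPM. Myl6 stayed between 132 and 148 CPM in the means of all 6 groups. The counts of Gm5526 per 1000 counts of Myl6 were 2.27 ± 1.03 and 5.98 ± 2.25 in wild-type mice without and with CDDO-Me and 0.915 ± 0.419 to 2.64 ± 1.26 in the others, so its level did not run with that of its parent.

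Pard3bos3 was also low and overlapped between most groups. Its level was 0.527, 1.41, 0.866, 0.534, and 0.494 CPM in vehicle-treated and 1.45, 1.59, 2.61, 2.20, and 2.46 CPM in treated wild-type mice, a log2 fold change of 1.41 ± 0.30 (SE) with a gap of 1.41 to 1.45 CPM between the groups. The C151S libraries ran from 0.651 to 1.55 CPM with vehicle and from 0.305 to 1.23 CPM with CDDO-Me. In the knockout they ran from 0.337 to 1.28 CPM and from 0.194 to 0.839 CPM. Pard3b, on the other strand, had group means of 5.59 to 7.16 CPM, and the ratio of Pard3bos3 to it was highest in treated wild-type mice, at 338 ± 57 counts per 1000, against 84.4 to 172 elsewhere. The libraries were made with a stranded kit and the counts kept strand.

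9130409I23Rik had the highest level of the 7 per length of exon in treated wild-type mice. In the knockout it was far lower, though above the floor in every library. Vehicle-treated wild-type libraries had 30.4, 26.9, 30.3, 24.0, and 22.3 CPM and treated ones 35.5, 35.3, 50.5, 53.3, and 56.7 CPM. The knockout had 0.428, 1.37, 1.59, 1.49, and 0.371 CPM with vehicle and 1.06, 0.387, 2.23, 0.660, and 1.21 CPM with CDDO-Me, a ratio of the vehicle means of 25.5. In C151S mice the vehicle libraries were near the wild-type, at 20.8, 25.6, 22.6, 19.5, and 27.9 CPM. The CDDO-Me libraries were lower than all of these, at 3.46, 14.1, 13.4, 13, and 7.15 CPM, in the direction opposite to that of wild-type mice.

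The neighbour Ephx1 shared only part of this pattern. Ephx1 went from 557 ± 78 to 1286 ± 191 CPM in wild-type mice and stayed at 408 ± 41 and 370 ± 92 CPM in C151S mice, with 175 ± 16 and 185 ± 42 CPM in the knockout. There were 48.3 ± 5.9 counts of 9130409I23Rik per 1000 counts of Ephx1 in vehicle-treated and 35.7 ± 3.1 in treated wild-type mice, 57.2 ± 8.4 and 26.8 ± 9.5 in C151S mice, and 6.07 ± 3.64 and 5.92 ± 3.66 in the knockout. Degs1, the closest coding relative, had group means of 76.4 to 92.4 CPM.

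**Figure D2:**
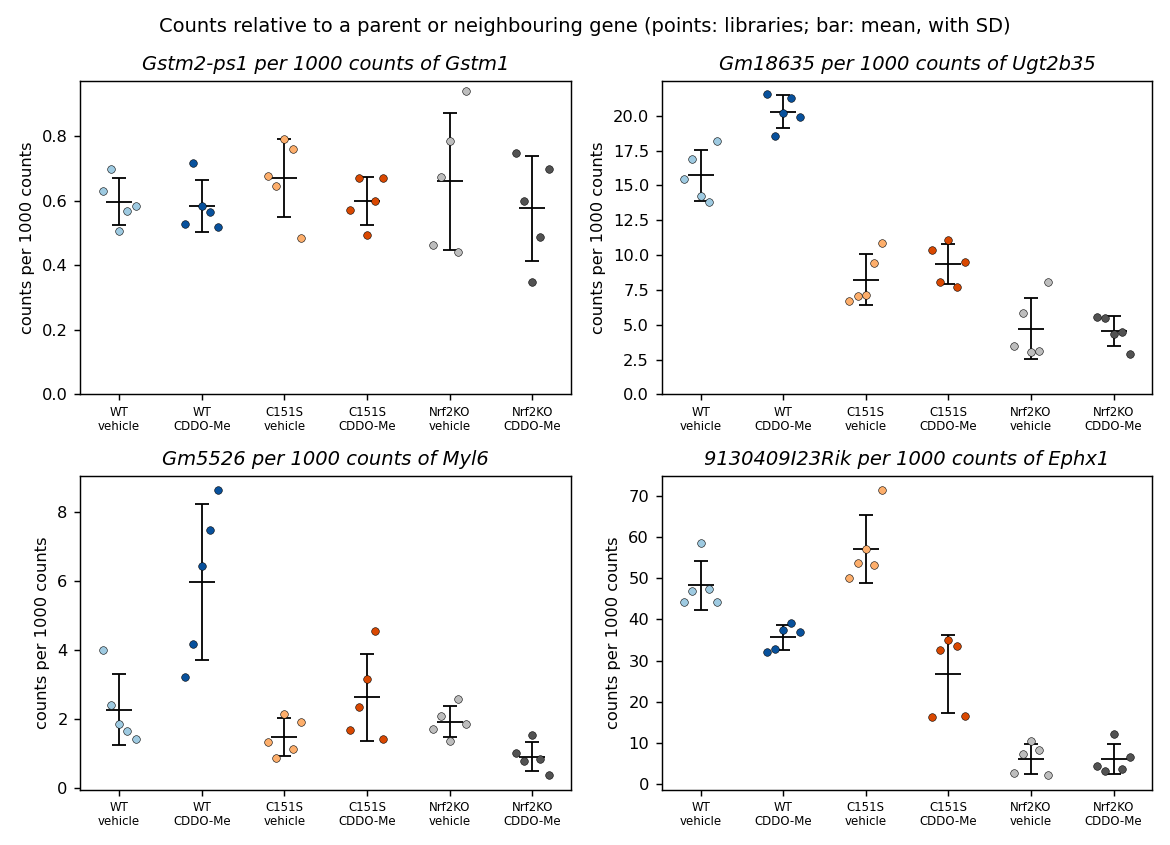
Counts of 4 transcripts per 1000 counts of a parent (Gstm1, Myl6) or neighbouring gene (Ugt2b35, Ephx1), 5 libraries (points) per group with the mean and SD, linear axes. Gstm2-ps1 per Gstm1 lies at 0.577 to 0.671 in all group means, while Gm18635 per Ugt2b35 falls from 20.3 to 4.55.

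Per kilobase of exon, the mean levels in treated wild-type mice were 24.4 CPM for 9130409I23Rik, 15.9 for Gm18635, 9.45 for Gstm2-ps1, 3.48 for Gm34934, 2.39 for Pard3bos3, 2.01 for Gm12498, and 2.003 for Gm5526. Gstm1, by the same measure, stood at 7314 CPM per kilobase, Ephx1 at 659, and Ugt2b35 at 247.

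The response to CDDO-Me in C151S mice was taken as outside the rule that chose the 7 genes, and it was tested. The 7 were chosen with earlier results of these data known, so the independence of this test from the choice is not certain. Calls came from edgeR's quasi-likelihood F-test across all genes and needed an adjusted p (FDR) under 0.05 with a log2 fold change of 0.5 or more in either direction. In C151S mice 13 of 14128 genes were called, or 0.092%, and none of the 6 listed genes that passed the filter on low counts. Gm12498 did not pass. The log2 fold changes were -0.12 ± 0.30 (SE) for Gstm2-ps1, 0.06 ± 0.37 for Gm18635, and 0.86 ± 0.40 for Gm5526, with adjusted p of 0.864, 0.948, and 0.368 from edgeR. Gm34934 had -0.50 ± 0.16, Pard3bos3 -0.91 ± 0.40, and 9130409I23Rik -1.19 ± 0.32, with adjusted p of 0.350, 0.360, and 0.333. The median of the 6 was -0.31, beside -0.01 for all genes tested. For 9130409I23Rik, DESeq2 gave an adjusted p of 0.0330, and over the 18 alternatives it ranged from 0.0330 to 0.631. Without replicate 1 of the treated group, the library with 3.46 CPM and the lowest normalization factor (0.880), its log2 fold change was -0.98.

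In the Nrf2-knockout mice no gene of 14474 was called by edgeR after CDDO-Me (0%), although 1136 had an unadjusted p under 0.05 and DESeq2 called 43. The knockout libraries took part in choosing the 7 genes, so these values are only a partial check. The log2 fold changes were 0.27 ± 0.39 (SE) for Gm18635, -0.55 ± 0.18 for Gm34934, -0.34 ± 0.41 for Pard3bos3, and 0.07 ± 0.52 for 9130409I23Rik. The other 3 did not pass the filter on low counts.

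For the comparisons that chose the 7 genes the values are descriptions only. In wild-type mice 2.75% of all genes were called after CDDO-Me, and the log2 fold changes of the 7, beside those given above, were 1.79 ± 0.12 (SE) for Gm18635, 1.39 ± 0.34 for Gm5526, and 0.78 ± 0.15 for 9130409I23Rik. Between wild-type and knockout mice 10.4% of genes were called with vehicle and 9.44% with CDDO-Me. With vehicle, wild-type minus knockout was 2.48 ± 0.33 (SE) for Gstm2-ps1, 4.32 ± 0.28 for Gm18635, 1.02 ± 0.15 for Gm34934, 0.06 ± 0.39 for Pard3bos3, and 4.62 ± 0.34 for 9130409I23Rik, and Gm12498 and Gm5526 did not pass the filter. Pard3bos3 and Gm5526 thus had overlapping vehicle levels in the 2 genotypes. With CDDO-Me the differences ran from 1.80 ± 0.33 for Pard3bos3 to 6.39 ± 0.35 for Gm12498. These comparisons share the treated and vehicle-treated wild-type libraries and are not independent.

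Between vehicle-treated wild-type and C151S mice 4.84% of genes were called. The difference was 1.80 ± 0.29 (SE) for Gm18635. In the other 5 that passed the filter it ran from -0.64 ± 0.33 for Pard3bos3 to 0.44 ± 0.24 for Gstm2-ps1. The wild-type libraries took part in the selection, so these values are descriptions.

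The parents and neighbours were chosen by alignment and position, not by their own values, and were tested in every comparison. They belong to transcripts selected on these same libraries, so calls in comparisons with wild-type mice are not independent of that selection. Of the 21 parents and neighbours 18 passed the filter. In wild-type mice, where 2.75% of all genes were called after CDDO-Me, 7 of the 18 rose. These were Gstm1 (2.42 ± 0.16 on the log2 scale, ± SE, adjusted p = 5.08e-06), Gstm4 (1.62 ± 0.09, 2.08e-06), Gstm2 (1.45 ± 0.18, 0.000580), Ugt2b35 (1.41 ± 0.10, 7.79e-06), Samd4 (1.30 ± 0.12, 4.75e-05), Ephx1 (1.20 ± 0.12, 0.000135), and Ugt2b36 (0.58 ± 0.09, 0.00240), with adjusted p from edgeR. The call of Ugt2b36 was lost in 1 fit of all 30 libraries (adjusted p = 0.181). None of the 18 was called in C151S or in knockout mice, where only 0.092% and 0% of all genes were called.

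The pseudogene parents other than Gstm1 and Gstm2 did not pass the test in wild-type mice. The log2 fold change was 0.04 ± 0.12 (SE) for Myl6 and -0.61 ± 0.24 for Arhgap11a, with edgeR adjusted p of 0.899 and 0.213. Degs1 had 0.21 ± 0.13 with an adjusted p of 0.438, and Pard3b -0.12 ± 0.14 with 0.747. Nor did the other neighbours tested. Cgrrf1 had 0.18 ± 0.08, Wdr75 0.14 ± 0.10, Nvl 0.01 ± 0.07, and Suds3 -0.14 ± 0.07. Nrp2 had 0.27 ± 0.11, Srrm4 -1.09 ± 0.42, and Icos -0.70 ± 0.41.

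**Figure D3:**
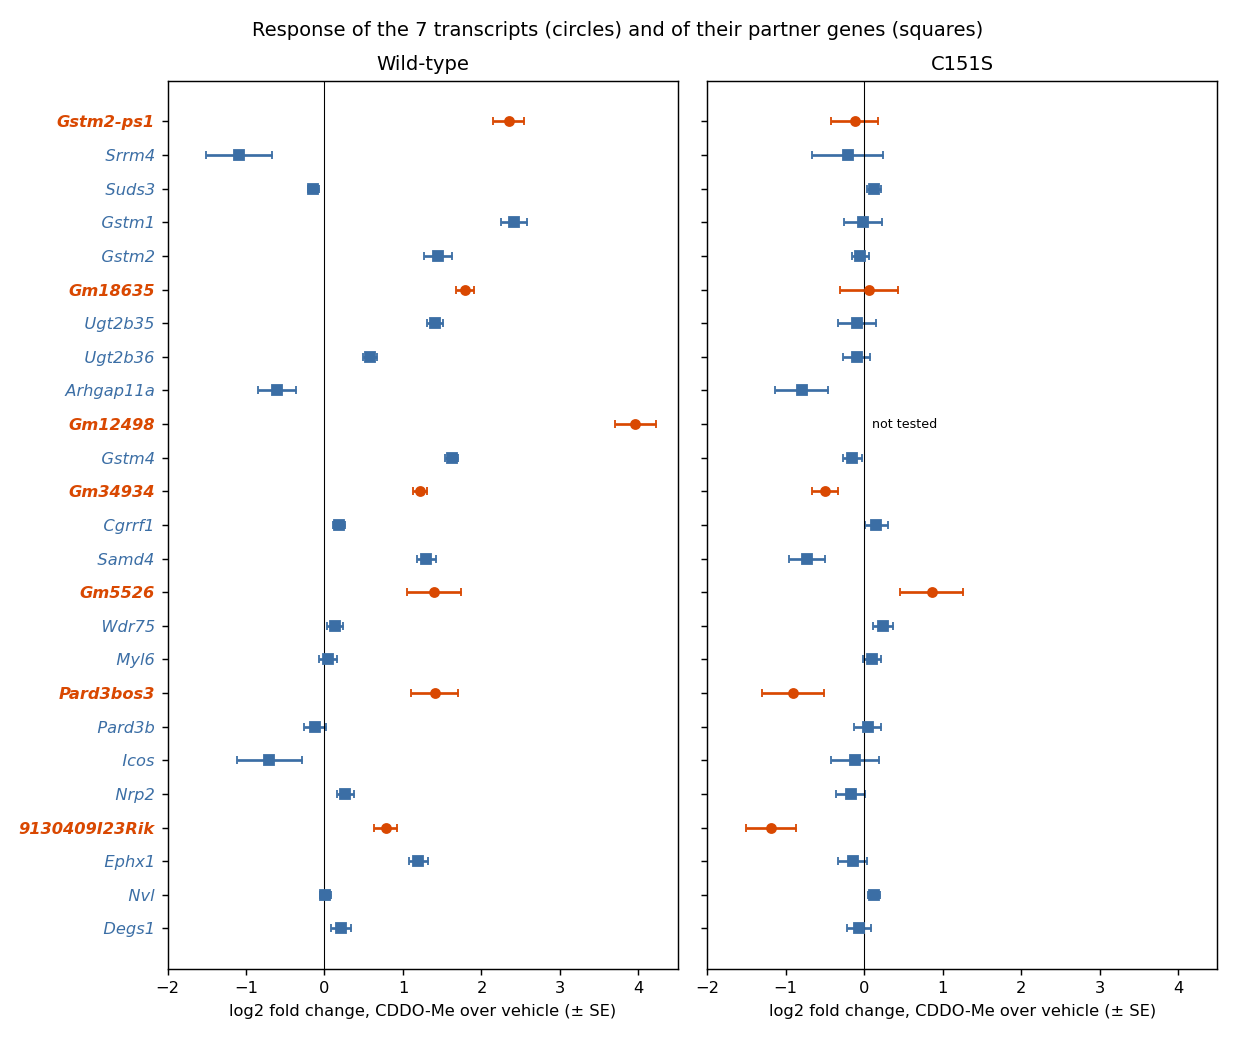
Log2 fold change of CDDO-Me over vehicle, with its SE, for the 7 transcripts (orange circles) and each parent or neighbouring gene that passed the filter (blue squares, listed under the first transcript they belong to) in wild-type (left) and C151S mice (right). Gm5526, Pard3bos3, and Gm34934 reach 1.21 to 1.41 in wild-type mice. The partners Myl6 and Pard3b stay at 0.04 and -0.12, while Samd4, the neighbour of Gm34934, rises as Gm34934 does. In C151S mice 9130409I23Rik lies at -1.19.

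Between wild-type and knockout mice on vehicle, 10.4% of all genes were called. Of the 18 partner genes, 6 were higher in wild-type mice and none lower. They were Gstm1 (2.63 ± 0.17), Ugt2b35 (2.60 ± 0.14), Gstm4 (1.76 ± 0.09), Ephx1 (1.65 ± 0.11), Ugt2b36 (1.40 ± 0.11), and Gstm2 (1.14 ± 0.19). With CDDO-Me, where 9.44% of all genes were called, there were 7, with Samd4 (1.89 ± 0.28) added. Srrm4, an RNA splicing factor gene, was lower in wild-type mice (-1.78 ± 0.44). Samd4 differed by 0.22 ± 0.27 with vehicle, with an edgeR adjusted p of 0.604. Against vehicle-treated C151S mice, 4.84% of all genes were called. There Ugt2b35 (0.94 ± 0.20), Gstm4 (0.73 ± 0.10), and Gstm1 (0.57 ± 0.15, edgeR adjusted p = 0.0420) were higher in wild-type mice. Ugt2b36 (0.47 ± 0.13) and Ephx1 (0.43 ± 0.11) stayed under the limit on size. The call of Gstm1 there was lost under several alternatives, with adjusted p up to 0.0955, and that of Ugt2b35 without replicate 2 of the C151S group (0.0533).

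The difference between the responses of 2 genotypes was tested in a fit of all 30 libraries. For the wild-type minus the C151S response 0.48% of all 15010 genes tested were called, and 6 of the 18 partner genes were among them, Gstm1, Gstm4, Gstm2, Ephx1, Ugt2b35, and Samd4. For the wild-type minus the knockout response 0.266% were called, with 4 of the 18, Gstm1, Gstm4, Gstm2, and Ephx1. Leaving out all mice with 1 number removed some of these calls, those of Gstm2 and Ephx1 against the knockout in 4 of the 5 cases each.

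A list of 40 NRF2 target genes served as the wider pathway. It was written with earlier results of these data known, so its counts are a description. Of its 39 members tested in wild-type mice, 30 were called higher after CDDO-Me and none lower, beside 2.75% of all genes called. The changes ran from Me1 (-0.07 ± 0.19) to Cbr3, a carbonyl reductase (5.24 ± 0.31), with a median of 1.15 beside -0.01 over all genes. None of the 38 tested in C151S or the 37 tested in knockout mice was called, with medians of -0.04 and -0.02. Only 0.092% and 0% of all genes were called there. In wild-type against knockout mice, 25 of 38 were higher with vehicle and 37 of 39 with CDDO-Me, and none was lower. Of all genes, 10.4% and 9.44% were called in these comparisons. Of the mu-class glutathione S-transferases, Gstm3 rose by 3.16 ± 0.34 in wild-type mice, beside Gstm1, Gstm2, and Gstm4, while Gstm5 had 0.15 ± 0.10, Gstm6 0.28 ± 0.09, and Gstm7 -0.19 ± 0.10.

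Markers of other cell types moved in some of these comparisons. Of all genes, 10.4% were called between wild-type and knockout mice with vehicle, 9.44% with CDDO-Me, and 4.84% between vehicle-treated wild-type and C151S mice. After CDDO-Me 2.75% were called in wild-type, 0.092% in C151S, and 0% in knockout mice. In wild-type against knockout mice on vehicle, 3 of 5 endothelial and 4 of 6 stellate and fibroblast markers were lower in wild-type mice, and the summed endothelial level was 155 to 191 CPM in wild-type and 196 to 303 CPM in knockout libraries. Stellate and fibroblast markers summed to 132 to 202 CPM and 148 to 395 CPM. In the same comparison both neutrophil markers tested were lower and 2 of 4 erythroid markers higher in wild-type mice, and no cholangiocyte, Kupffer cell, or lymphocyte marker was called. Between wild-type and knockout mice on CDDO-Me, 1 of 5 endothelial and 2 of 6 stellate and fibroblast markers were lower and 1 of 6 Kupffer cell markers higher in wild-type mice. Against vehicle-treated C151S mice, 1 of 5 cholangiocyte markers was higher in wild-type mice. For CDDO-Me in wild-type mice, 1 of 2 neutrophil markers rose and 1 of 4 erythroid markers fell, with no call among the other lists, and in C151S or knockout mice no marker was called. Their part in the levels of the 7 transcripts was not tested.

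Within a group, where treatment and genotype are the same, 19 pairs of a transcript and a partner gene were compared over the deviations of 30 libraries from their group means. The libraries share depth and normalization, so that a gain or loss common to many genes would enter both members of a pair. Gm18635 deviated together with Ugt2b35, with Pearson's r = 0.81 and Spearman's rho = 0.76 (permutation p = 6e-05 and 5e-05 with 100000 shuffles within groups, two-sided, adjusted over the 19 pairs to 0.00114 and 0.00095). Without the 2 libraries farthest from the median of Ugt2b35, r was 0.70 (adjusted permutation p = 0.017), and over the 19 libraries with high Arntl it was 0.69 (adjusted permutation p = 0.0818). Gstm2-ps1 and Gstm1 gave r = 0.71 (adjusted permutation p = 0.00912) and rho = 0.56 (0.0555), and without the 2 farthest libraries r = 0.55 (0.0686), so that the relation rests in part on those libraries. Over the libraries with high Arntl it was 0.77 (0.0278).

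9130409I23Rik passed the adjusted threshold with its paralogue and not with its neighbour, and the difference between these relations was not tested. With Degs1 r was 0.58 (adjusted permutation p = 0.00912) and rho 0.61 (0.0143), and without the 2 farthest libraries r was 0.62 (0.017), with 0.61 (0.222) over the libraries with high Arntl. With Ephx1 r was 0.56 (0.056) and rho 0.47 (0.0555). Without the 2 libraries farthest from the median of Ephx1 r dropped to 0.26 (0.343), and over the libraries with high Arntl it was 0.77 (0.0278). Gm34934 and Samd4, by contrast, gave r = -0.09 (0.852). The group means of both were higher with CDDO-Me in wild-type mice and lower with it in both mutants. With vehicle they parted: Gm34934 had 6.99 CPM in wild-type and 5.42 in C151S mice, and Samd4 4.75 and 5.29. The other 14 pairs gave adjusted permutation p of 0.144 or more. Gm12498 with Gstm1 had r = 0.42 (0.144), Gm5526 with Myl6 0.31 (0.33), and Pard3bos3 with Pard3b 0.30 (0.372).

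**Figure D4:**
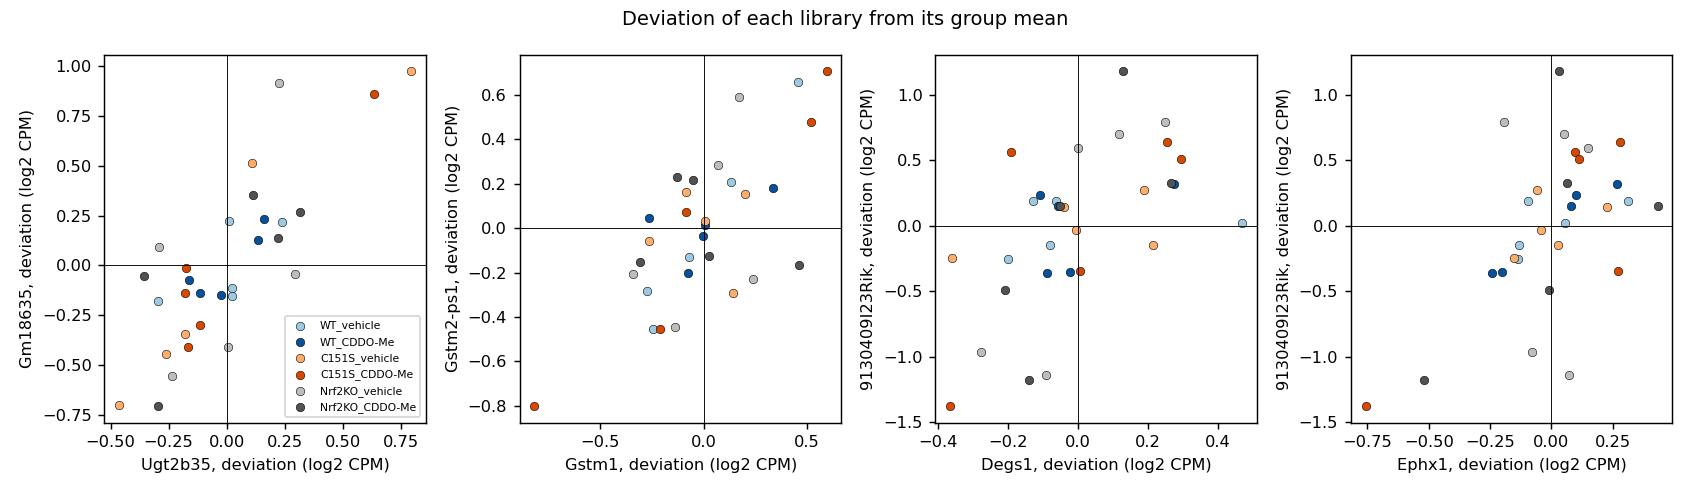
Deviation of each of 30 libraries from its group mean in log2 CPM, transcript on the vertical and partner gene on the horizontal axis, coloured by group. Gm18635 rises with Ugt2b35 (r = 0.81), Gstm2-ps1 with Gstm1 (0.71), and 9130409I23Rik with Degs1 (0.58). For 9130409I23Rik with Ephx1 r is 0.56, with 0.26 without the 2 farthest libraries and 0.77 over the 19 with high Arntl.

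Over all 30 libraries, group differences included, the genes with the most similar pattern were found by Pearson's r of log2 CPM among 15008 genes, as a description. The first was Gstm1 for Gstm2-ps1 (r = 0.99), Ugt2b35 for Gm18635 (0.99), and Gstm4 for both Gm12498 (0.94) and Gm34934 (0.94). They were followed by Ephx1 and Nqo1 for Gstm2-ps1, Ugt2b5 and Entpd5 for Gm18635, Gclc and Gstm3 for Gm12498, and Ugdh and Creg1 for Gm34934. For 9130409I23Rik they were Ces1b (0.95), Abcc3 (0.95), and Aox1 (0.93). The likeness was weaker for Pard3bos3, whose nearest were Samd4 (0.85), Acat3 (0.85), and Gm3776 (0.82), and for Gm5526, with Gm16565 (0.79), Selenbp1 (0.77), and Abcc4 (0.77).

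Over all 30 libraries, group differences included, r between the 7 transcripts ran from 0.49 to 0.93 over the 21 pairs. They were selected on these same libraries for such group differences, so this likeness is no separate result. Within groups the same pairs ran from -0.72 (Gm18635 with Gm12498) to 0.69 (Pard3bos3 with 9130409I23Rik), a description without test. In vehicle-treated C151S mice the 2 libraries with low Arntl were the highest for Gm18635, while they were the lowest for Gm12498, at 0.0325 and 0.137 CPM against 0.281 to 0.479 CPM in the other 3.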

How the data were processed

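RNA was prepared from the livers of 30 mice (6 groups of 5) and sequenced as stranded, poly(A)-selected, paired-end mRNA libraries. The authors checked reads with fastp, aligned them to mm10 with STAR 2.7.7, and deposited the unnormalized gene counts of STAR for the second strand over GENCODE M23. STAR leaves out reads that map to several places, so close copies of a coding gene are counted in part. The submitters' processing notes also list edgeR 3.36.0. Isolation dates, a covariate in the study, were not used here.

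The 4 summary lines were left out, and 55335 genes remained. Symbols and positions came from GENCODE M21 (GRCm38). Sequences were aligned with BLAST 2.17.0, and promoters were taken from RefSeq. The 7 genes and all lists were chosen with earlier results of these data known. Libraries were grouped by their genotype and treatment labels. 

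Counts of 2 groups (10 libraries) were filtered with filterByExpr, normalized by TMM, and tested with the legacy quasi-likelihood F-test of edgeR 4.0.16 (R 4.3.3), with Benjamini-Hochberg adjustment, calling genes at FDR 0.05 and absolute log2 fold change 0.5. SE was derived from the F statistic. Differences between responses, added after the data were seen, used 1 fit of 30 libraries at FDR 0.05. Log2 CPM used a prior count of 2. Tests of within-group correlation used 100000 shuffles (scipy 1.17.1). The fits were tested on simulated data. Alternatives were DESeq2 1.42.0, the edgeR 4 fit, upper-quartile normalization, no filter, a minimum of 10 counts per library, the replicate block, 1 fit of 30 libraries, the Arntl side as covariate, and each library left out. The named genes are the 7, Nfe2l2, Keap1, overlapping and neighbouring genes, parents, the 3 most similar genes, mu-class glutathione S-transferases, and the largest and smallest change of the NRF2 list. Degs1, the closest coding paralogue by alignment, was added after its alignment was seen. Depth gives 3 counts as the floor, for counting error only.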

Additional observations from a re-analysis of the deposited data

Results flagged for a closer look

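Of 42 sets of 5 libraries (7 transcripts in 6 groups), 2 held a library far from the others by Dixon's test, beside about 1 in 20 that chance gives. These were Gm18635 in CDDO-Me-treated C151S mice, where 1 library had 2.54 CPM, and Gm12498 in vehicle-treated knockout mice, where 1 library had 0.0990 CPM and the other 4 had no counts. The value of Gm12498 came from 3 counts, the floor of detection. With the other 4 equal, Dixon's statistic is at its highest for any such value, so that set is no test.

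The response of 6 partner genes to CDDO-Me differed between wild-type and C151S mice in the fit of 30 libraries (log2 difference, wild-type minus C151S): Gstm1 by 2.43, Samd4 by 2.02, Gstm4 by 1.77, Ugt2b35 by 1.51, Gstm2 by 1.5, and Ephx1 by 1.35. Between wild-type and knockout mice the difference was 2.28 for Gstm1, 1.42 for Gstm4, 1.13 for Ephx1, and 1.11 for Gstm2.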

How the results depend on the processing

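No result changed sign when it was called. DESeq2 called 123 genes instead of 13 in C151S mice, 43 instead of 0 in knockout mice, and 1065 instead of 675 between vehicle-treated wild-type and C151S mice. One fit of all 30 libraries called 147 instead of 377 genes in wild-type, 34 in C151S, and 11 in knockout mice and 382 between vehicle-treated wild-type and C151S mice. In C151S mice 7 genes were called with upper-quartile normalization, 23 without a filter on low counts, and 1 with at least 10 counts in every library. The Arntl side as covariate gave 4 genes in C151S mice, 954 instead of 1462 between vehicle-treated wild-type and knockout mice, and 1904 between vehicle-treated wild-type and C151S mice. The cause was not tested. With a library left out the calls ranged from 265 to 493 in wild-type, from 0 to 22 in C151S, and from 949 to 2050 and 975 to 1487 in the 2 comparisons with knockout mice, from 390 to 1168 against C151S mice, and, for the differences between responses, from 28 to 59 and from 16 to 33. Under upper-quartile normalization the split of higher against lower in wild-type mice went from 579 and 883 to 426 and 1307 against the knockout with vehicle, and from 314 and 361 to 252 and 460 against C151S mice.

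The replicate block changed 13 calls to 2 in C151S mice. Same-numbered libraries did not vary together in every pair (mean correlation 0.18 or less, lowest -0.36). In knockout mice the mean was 0.18 for the same number, against -0.04 for other numbers. What same-numbered libraries have in common was not tested. No call of a partner gene other than Arhgap11a (-0.84, edgeR adjusted p = 0.0400 against the knockout with CDDO-Me) changed under the block. The within-group pairs with adjusted p under 0.05 were 3, and 2 or 3 under the alternatives, but not always the same pairs. Gstm2-ps1 with Gstm1 did not pass with Spearman's rho or without the 2 farthest libraries (adjusted permutation p = 0.0555 and 0.0686). Over the libraries with high Arntl, Gm18635 with Ugt2b35 (0.0818) and 9130409I23Rik with Degs1 (0.222) did not pass. There 9130409I23Rik with Ephx1 passed (0.0278). Spearman's rho kept 9 of the 21 most similar genes. Depth limits Gm5526 and Pard3bos3, with at most 80 counts in any library, and Gm12498, with at most 16 outside treated wild-type mice.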
